A study of Homo sapiens with 6 samples.

Results

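The genes described here are 10 parts of the NF-kB pathway in the human leukaemia cell line OCI-AML2: the DNA-binding factor genes NFKB1, NFKB2, REL, RELA and RELB, the inhibitor genes NFKBIA and NFKBIE, the ubiquitin-modifying regulators TNFAIP3 and BIRC3, and the chemokine gene CCL5. They were chosen by gene symbol from the 55765 genes of the deposited count table, and all 10 had enough counts to enter the test, which covered 13053 genes. OCI-AML2 is an established line from acute myeloid leukaemia, and per the labels the cultures were grown from single-cell clones; which clone gave which library is not stated. Cells received 100 nM MRT199665, an inhibitor of the MARK kinases that is also known to act on SIK kinases, or vehicle alone, for 48 h, and each group held 3 libraries made with a Lexogen kit that reads the 3′ ends of messenger RNAs. Whether the 3 libraries of a group stem from independent cultures is not stated, and the p-values may therefore rest on technical spread alone.

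The series concerns MEF2C phosphorylation and resistance to chemotherapy, and the comparison asks how transcripts differ under the inhibitor. NF-kB is a family of dimeric transcription factors that wait in the cytoplasm of resting cells, bound by IkB inhibitor proteins. Signals from tumour necrosis factor, interleukin-1 or Toll-like receptors activate the IkB kinase, which marks the inhibitors for destruction and frees dimers such as RELA with the NFKB1 product. A slower, non-canonical branch processes the NFKB2 product and moves it into the nucleus with RELB. Several genes of the pathway are themselves NF-kB targets, among them NFKBIA, TNFAIP3, BIRC3, NFKB2 and RELB, and in myeloid cells the pathway drives survival genes and inflammatory chemokines such as CCL5.

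Of the 10 genes, CCL5 fell with MRT199665 and the other 9 did not pass the test (edgeR, quasi-likelihood; a gene is called where its p, adjusted over all tested genes by Benjamini-Hochberg, is below 0.05). Over all 13053 tested genes 0.398% were called lower, 0.85% higher and 1.25% in either direction. RELB and TNFAIP3 had means nearly as far below vehicle as CCL5, with more spread between libraries. An unadjusted p under 0.05 was found for these 3 genes, all lower, and for none in the higher direction, against 7.11% of all tested genes lower and 7.64% higher. NFKB1, REL, RELA, NFKBIA and NFKBIE had means within 1.17-fold of vehicle in either direction. The median log2 fold change of the 10 genes was -0.14, against 0.01 for all tested genes. The libraries of both groups did not overlap for 4 of the 10 genes, with 3 lower and 1 higher, while 22.2% of all tested genes had no overlap.

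The libraries held between 5871097 counts (MRT199665 replicate 2) and 14308650 counts (MRT199665 replicate 3). Levels are given as CPM, that is counts divided by the library's scaled total. The limit that a count of 0 allows (3 counts) was 0.213 CPM in the deepest library and 0.507 CPM in the shallowest, for counting error alone. The first principal component of all tested genes held 46.8% of the variance with MRT199665 replicate 2 (-48.4) and vehicle replicate 2 (36.8) at its ends, so values without these libraries are given where they matter. Of 9 myeloid markers 8 were tested, including CD33, MPO, SPI1 and PTPRC, while CEBPA had a count of 0 in all 6 libraries. No myeloid marker was called by edgeR or limma-voom, and DESeq2 called FCER1G. An unadjusted p under 0.05 was found for 4 myeloid markers with higher means (LYZ, FCER1G, MPO and CD33, log2 fold changes 1.22, 0.77, 0.47 and 0.32) and 1 with a lower mean (ANPEP, -0.93), against 14.7% of all tested genes in either direction. Of the 8 tested, 7 had a positive log2 fold change, with a median of 0.35, while CCL5 fell, and the part of this in the results below was not tested. Among markers of other cell types, MS4A1 (B cells), HBB (erythroid cells), PPBP and PF4 (platelets) and KRT18 (epithelium) had a count of 0 in every library.

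**Figure D1:**
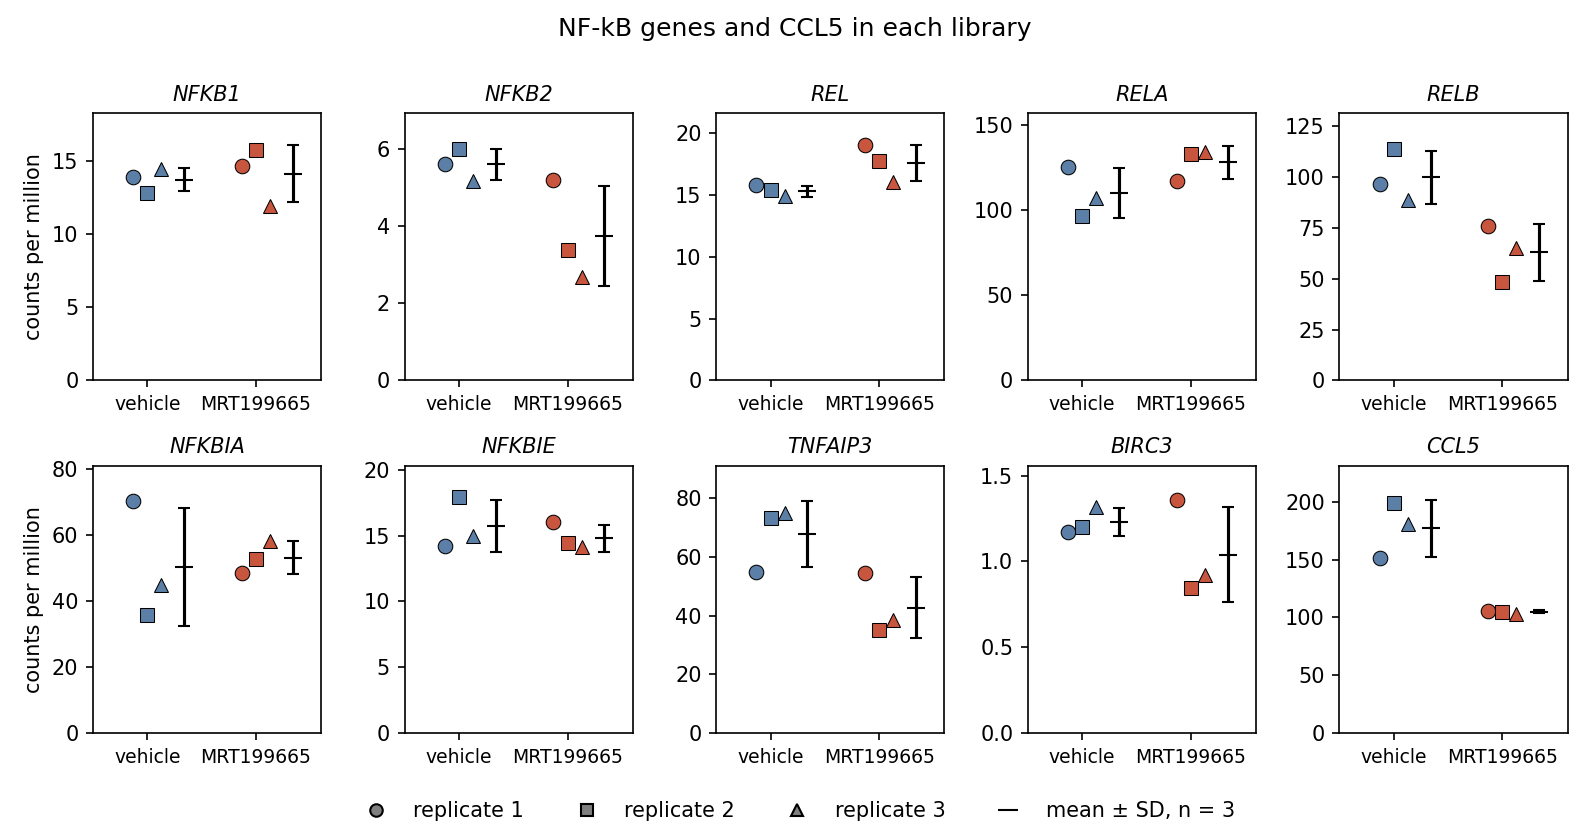
CPM (y axis, linear, from 0) of the 10 genes in each library, with vehicle in blue and MRT199665 in red, replicates as circle, square and triangle, and the mean ± SD (n = 3) beside each group. CCL5 lay at 103 to 106 CPM in the treated libraries, below all vehicle libraries at 151 to 199 CPM, whereas NFKB1, RELA, NFKBIA and NFKBIE overlapped between the groups.

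CCL5, also called RANTES, encodes a secreted chemokine that attracts T cells, monocytes and other leukocytes, and it is the secreted product of the group. Values are listed in the order of replicates 1, 2 and 3 here and below. CCL5 was at 151, 199 and 181 CPM with vehicle and at 106, 105 and 103 CPM with MRT199665. All treated libraries lay below all vehicle libraries, and the treated ones were nearly equal. CCL5 fell 1.69-fold with MRT199665 (95% interval 1.38 to 2.07). Its log2 fold change was -0.76 ± 0.13 (SE) at an adjusted p of 0.0288 (unadjusted p = 0.000240, place 109 of 13053 by p). The SD of the treated group was 1.44 CPM, less than the 4.22 CPM of counting error in MRT199665 replicate 2 alone, where CCL5 had 623 counts. The spread thus lay with the vehicle libraries, whose SD was 24.4 CPM. In bulk RNA, fewer cells with the transcript and less of it per cell cannot be told apart.

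The size of the CCL5 difference moved little between settings, but its call did not hold in many of them. Its log2 fold change was between -0.86 and -0.67 in 17 alternatives, and 9 of these called it. With 1 library left out, CCL5 was called only without vehicle replicate 1 (adjusted p = 0.0112), the lowest vehicle library. The adjusted p was 0.0761 and 0.187 without vehicle replicates 2 and 3, 0.121, 0.0711 and 0.174 without MRT199665 replicates 1, 2 and 3, and 0.0633 without replicate 2 of both groups. DESeq2 gave an adjusted p of 0.000104 and limma-voom one of 0.0300. The difference was not shown to exceed 1.5-fold, since the test against that size gave an adjusted p of 1.

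**Figure D2:**
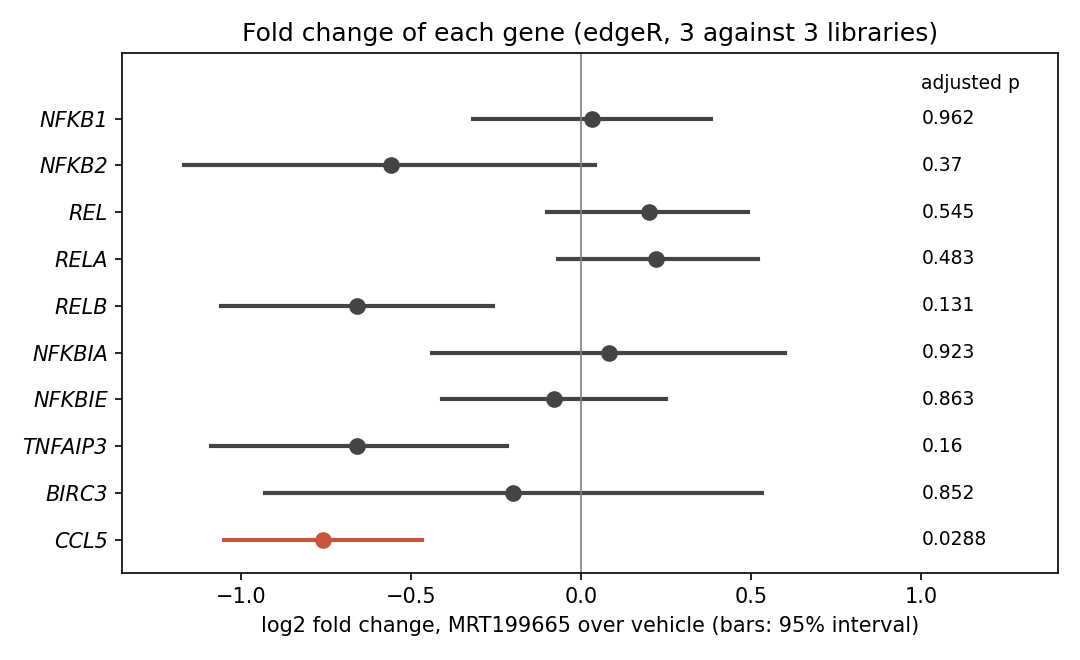
Log2 fold change (x axis, MRT199665 over vehicle) of each of the 10 genes, with the 95% interval as a bar and the adjusted p from edgeR at the right, and CCL5 in red as the 1 gene called. The intervals of CCL5 (-1.05 to -0.47), RELB (-1.06 to -0.26) and TNFAIP3 (-1.09 to -0.22) lay below 0, and those of the other 7 genes included 0.

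RELA and REL encode Rel proteins with a transactivation domain, the partners that turn genes on in canonical signalling. RELA was at 125, 96.4 and 107 CPM with vehicle and at 117, 133 and 134 CPM with MRT199665. The groups overlapped, as vehicle replicate 1 stood above MRT199665 replicate 1. For RELA the log2 fold change was 0.22 ± 0.13 (SE, adjusted p = 0.483), and its 95% interval of -0.07 to 0.52 leaves room for up to 1.43-fold higher. REL was at 15.8, 15.4 and 14.9 CPM with vehicle and at 19.0, 17.7 and 16.0 CPM with MRT199665. Every treated library of REL lay above every vehicle library, but by a small margin (log2 fold change 0.20 ± 0.13, SE, adjusted p = 0.545). Among all tested genes 11.4% were separated in this direction.

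NFKB1 encodes the p105 precursor that is processed to p50, the common partner of RELA. It was at 13.9, 12.8 and 14.4 CPM with vehicle and at 14.6, 15.7 and 11.9 CPM with MRT199665. The treated libraries held both the highest and the lowest value. The log2 fold change was 0.03 ± 0.15 (SE, adjusted p = 0.962), with a 95% interval from 0.803-fold to 1.30-fold of vehicle, and its sign was not stable: it was -0.05 without MRT199665 replicate 2 and -0.10 without replicate 2 of both groups.

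RELB and NFKB2 encode the pair of proteins used by the non-canonical branch. RELB was at 96.6, 114 and 88.9 CPM with vehicle and at 75.9, 48.2 and 65.2 CPM with MRT199665. All treated libraries were below all vehicle libraries, and MRT199665 replicate 2 was lowest. The mean was 99.8 ± 12.9 CPM with vehicle and 63.1 ± 14.0 CPM with MRT199665 (SD, n = 3 per group), a fold of 1.58 downward (log2 fold change -0.66 ± 0.18, SE). RELB did not pass the test (unadjusted p = 0.00500, adjusted p = 0.131). DESeq2 (adjusted p = 0.0438) and edgeR without a low-count filter (adjusted p = 0.00197) called it, and the other 15 alternatives did not. Its log2 fold change was -0.50 without MRT199665 replicate 2 and -0.40 without replicate 2 of both groups.

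NFKB2 was at 5.62, 6.01 and 5.19 CPM with vehicle and at 5.21, 3.38 and 2.69 CPM with MRT199665. MRT199665 replicate 1 was at the level of the vehicle libraries and the other treated libraries were below them. The log2 fold change was -0.56 ± 0.27 (SE, adjusted p = 0.370), and it ranged from -0.92 without MRT199665 replicate 1 to -0.36 without MRT199665 replicate 3. The gene had 315 counts over all libraries and 20 in MRT199665 replicate 2, where counting error alone is 22.4%.

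Within a library the log2 ratio of RELB to RELA counts was -0.37, 0.24 and -0.27 with vehicle and -0.62, -1.47 and -1.03 with MRT199665. The ratio was lower in every treated library than in any vehicle library, by 0.91 between the group means (-1.04 against -0.13). The log2 ratio of NFKB2 to NFKB1 was -1.28, -1.07 and -1.44 with vehicle and -1.45, -2.16 and -2.07 with MRT199665, also without overlap, although MRT199665 replicate 1 and vehicle replicate 3 were nearly equal. The log2 ratio of NFKBIA to RELA overlapped between groups, at -0.83, -1.43 and -1.25 with vehicle and -1.26, -1.34 and -1.20 with MRT199665. Scaling between libraries cancels in such a ratio, apart from the small prior count. The ratios were computed after the values of the single genes were known, carry no test, and were taken on log2 CPM not divided by length, so that only their difference between libraries can be read.

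NFKBIA encodes IkB-alpha, the main cytoplasmic inhibitor of NF-kB, whose gene is switched on by NF-kB and closes a feedback loop. It was at 70.4, 35.7 and 44.9 CPM with vehicle, and at 48.5, 52.7 and 58.3 CPM with MRT199665. The treated libraries lay inside the range of the vehicle libraries, which vehicle replicate 1 widened upward. The log2 fold change was 0.08 ± 0.23 (SE, adjusted p = 0.923), with a 95% interval of 0.737-fold to 1.51-fold of vehicle. Leaving out vehicle replicate 1 gave 0.40 (adjusted p = 0.249) and leaving out vehicle replicate 2 gave -0.13 (adjusted p = 0.861), so no direction can be given. The SD within groups was 0.36 on the log2 scale, against a median of 0.16 for the 1000 genes of the nearest level.

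NFKBIE encodes IkB-epsilon, a slower-acting inhibitor that holds REL and RELA dimers. It was at 14.2, 17.9 and 15.0 CPM with vehicle and at 16.0, 14.4 and 14.1 CPM with MRT199665. The groups overlapped (log2 fold change -0.08 ± 0.15, SE, adjusted p = 0.863), with a 95% interval of -0.41 to 0.25. It turned to 0.02 without vehicle replicate 2 and to 0.04 without replicate 2 of both groups.

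TNFAIP3 encodes A20, an enzyme that edits ubiquitin chains and ends NF-kB signalling, and it is a classic NF-kB target. It was at 54.9, 73.4 and 75.1 CPM with vehicle and at 54.5, 35.3 and 38.6 CPM with MRT199665. The groups were separated only just, because MRT199665 replicate 1 almost reached vehicle replicate 1. The mean was 67.8 ± 11.2 CPM with vehicle and 42.8 ± 10.3 CPM with MRT199665 (SD, n = 3 per group), again a fold of 1.58 downward (log2 fold change -0.66 ± 0.19, SE). TNFAIP3 did not pass the test (unadjusted p = 0.00808, adjusted p = 0.160), and 1 of 17 alternatives called it (edgeR without a low-count filter, adjusted p = 0.00258). Its log2 fold change was -0.54 without MRT199665 replicate 2 and -0.49 without replicate 2 of both groups.

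BIRC3 encodes cIAP2, a ubiquitin ligase that protects cells from death receptor signals and restrains the non-canonical branch. It was near the lower limit of the test, with 14, 14 and 13 counts with vehicle and 18, 5 and 13 counts with MRT199665. That is 1.17, 1.20 and 1.32 CPM against 1.36, 0.845 and 0.921 CPM, so the groups overlapped. On the log2 scale BIRC3 differed by -0.20 ± 0.32 (SE, adjusted p = 0.852). The 95% interval of -0.93 to 0.53 is the widest of the group, and it includes both 0 and the log2 fold change of CCL5 (-0.76).

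**Figure D3:**
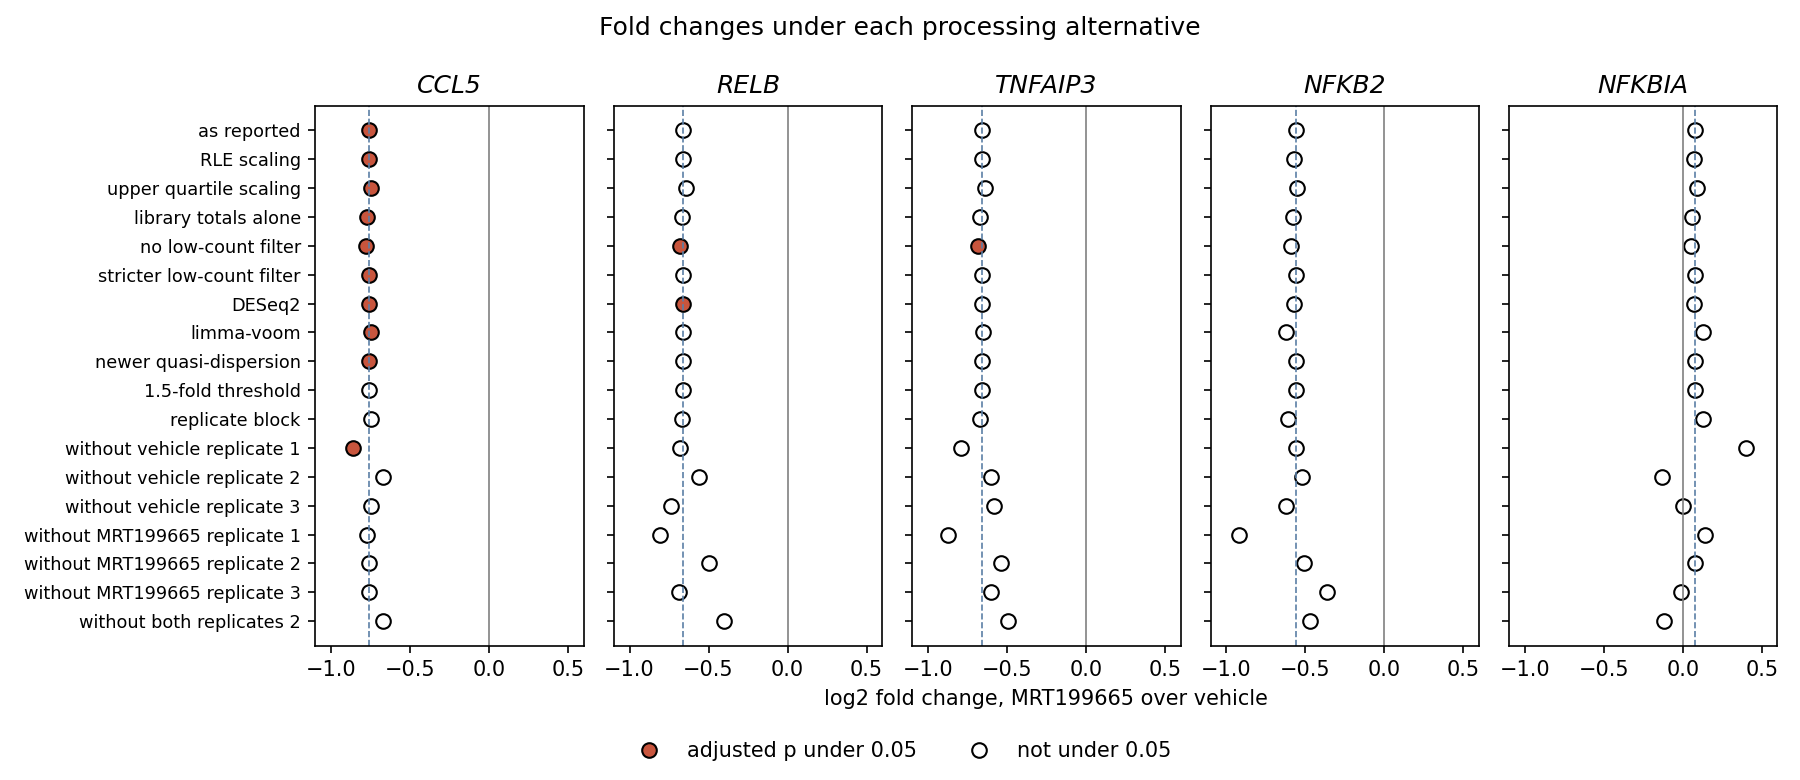
Log2 fold change (x axis, MRT199665 over vehicle) of CCL5, RELB, TNFAIP3, NFKB2 and NFKBIA as reported and in 17 alternatives (y axis), filled where the adjusted p was under 0.05, with a dashed line at the reported value. CCL5, RELB, TNFAIP3 and NFKB2 stayed below 0 throughout and CCL5 was called in 9 alternatives, while NFKBIA lay on both sides of 0.

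The 10 genes differed in how much libraries of a group varied. The SD within groups was 0.27 for RELB and 0.29 for TNFAIP3 on the log2 scale, against medians of 0.15 and 0.16 for the 1000 genes of the nearest level. CCL5, at 0.14 against 0.16, and REL, at 0.09 against 0.19, varied no more than such genes. Within the MRT199665 group, replicate 1 held the highest value for 7 of the 10 genes (NFKB2, REL, RELB, NFKBIE, TNFAIP3, BIRC3 and CCL5), although for CCL5 the gap was smaller than counting error. How often this library was highest among all tested genes was not counted. Without MRT199665 replicate 1 the log2 fold changes were -0.81 for RELB (adjusted p = 0.156), -0.87 for TNFAIP3 (0.118) and -0.92 for NFKB2 (0.205). Larger falls follow from leaving out the highest treated library of these genes, so they add no support.

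Because several of these genes are known NF-kB targets, their promoters were searched for the kappaB consensus motif, the DNA element that NF-kB dimers bind, on both strands. The RefSeq promoter table (GRCh38.p14, 250 bases before to 50 after each start) held 7 of the 10 genes and had no entry for RELB, NFKBIE and CCL5. At least 1 match was found for 6 of the 7 (NFKB1, NFKB2, REL, NFKBIA, TNFAIP3 and BIRC3), and none for RELA. Over all gene symbols with a promoter, 13.3% had a match. Of the 11 promoter windows of the 7 genes, 7 held a match, as did 11.3% of the 34943 windows in the table. The windows below show the match nearest the start site of each gene, 5′ to 3′ on the gene's strand, with matched bases in capitals and overlapping or adjacent matches shown together.
TNFAIP3 at chr6:137867182-137867223, plus strand: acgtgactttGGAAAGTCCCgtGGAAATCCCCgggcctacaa
NFKB2 at chr10:102395674-102395703, plus strand: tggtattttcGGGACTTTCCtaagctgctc
BIRC3 at chr11:102317339-102317368, plus strand: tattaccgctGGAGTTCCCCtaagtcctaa
NFKB1 at chr4:102501300-102501329, plus strand: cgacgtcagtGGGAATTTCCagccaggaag
REL at chr2:60881517-60881547, plus strand: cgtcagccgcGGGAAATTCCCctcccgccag
NFKBIA at chr14:35404811-35404840, minus strand: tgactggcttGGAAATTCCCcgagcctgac
TNFAIP3 carried a pair of matches side by side, starting 67 bases before the start site, and the other windows shown began their match between 21 and 135 bases before it. Genes with a match included those with lower means (TNFAIP3, NFKB2) and those near vehicle level (NFKB1, NFKBIA). A match describes the letters of the window and not binding in these cells.

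The rest of the pathway was described from lists of known members, by counts of called genes beside the 1.25% called over all tested genes. Of 19 receptor and ligand genes 13 were tested and none was called by edgeR, with 3 at an unadjusted p under 0.05, against 14.7% of all tested genes. DESeq2 and limma-voom also called none, and the median log2 fold change of the list was 0.13. The members with the lowest p pointed in opposite directions. LTB, the lymphotoxin beta subunit, was at 88.5, 54.7 and 67.9 CPM with vehicle and 98.8, 140 and 108 CPM with MRT199665 (log2 fold change 0.71 ± 0.20, SE, adjusted p = 0.142). TNF, the founding ligand of the pathway and also a target of NF-kB, was at 41.9, 83.3 and 63.2 CPM with vehicle and 36.4, 40.6 and 32.4 CPM with MRT199665 (log2 fold change -0.79 ± 0.23, SE, adjusted p = 0.160). Without vehicle replicate 1, the lowest vehicle library, TNF was called lower (adjusted p = 0.0262). The tumour necrosis factor receptor genes TNFRSF1A and TNFRSF1B had log2 fold changes of 0.29 and 0.28 and were not called.

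Of 31 adaptor and kinase genes, which carry the signal from receptors to the IkB kinase, 26 were tested. None was called by edgeR or limma-voom, and the median log2 fold change was 0.07. At an unadjusted p under 0.05 there were 4, against 14.7% of all tested genes. DESeq2 called 1 gene of the list lower, RBCK1, which encodes HOIL-1, a subunit of the linear ubiquitin chain assembly complex. RBCK1 was at 177, 183 and 171 CPM with vehicle and at 130, 129 and 140 CPM with MRT199665, which gave -0.42 ± 0.10 on the log2 scale (SE, adjusted p = 0.109 by edgeR). TAB1, an activator of the kinase TAK1, was at 57.0, 62.8 and 64.2 CPM with vehicle and 49.2, 42.8 and 47.3 CPM with MRT199665 (log2 fold change -0.40 ± 0.11, SE, adjusted p = 0.151). Neither gene overlapped between groups, and both were more abundant in every vehicle library. The other 2 at an unadjusted p under 0.05 had higher means, also without overlap: IKBKB, a catalytic subunit of the IkB kinase (log2 fold change 0.33 ± 0.11, SE, adjusted p = 0.205), and the related kinase gene IKBKE (0.45 ± 0.14, SE, adjusted p = 0.195). MAP3K14, the kinase NIK that starts the non-canonical branch, had 0 or 1 count in each library, and IKBKG, the regulatory subunit of the IkB kinase, had 0 to 2. IKBKG has a near-identical pseudogene copy, so its count is uncertain.

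Of 22 further inhibitors and deubiquitinases 21 were tested and none was called by edgeR or limma-voom. The median log2 fold change was -0.05, and 3 genes had an unadjusted p under 0.05, against 14.7% of all tested genes. DESeq2 called 1 gene of the list higher, PDLIM2, a ligase that promotes the breakdown of nuclear RELA. PDLIM2 was at 82.1, 128 and 106 CPM with vehicle and 185, 133 and 191 CPM with MRT199665 (log2 fold change 0.69 ± 0.19, SE, adjusted p = 0.145 by edgeR). NLRC5, known as a class I transactivator and as a negative regulator of the IkB kinase, was at 102, 76.5 and 73.9 CPM with vehicle and 63.8, 63.9 and 64.2 CPM with MRT199665 (log2 fold change -0.40 ± 0.14, SE, adjusted p = 0.239). The treated libraries lay below the vehicle libraries, as for CCL5 with little spread among themselves.

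**Figure D4:**
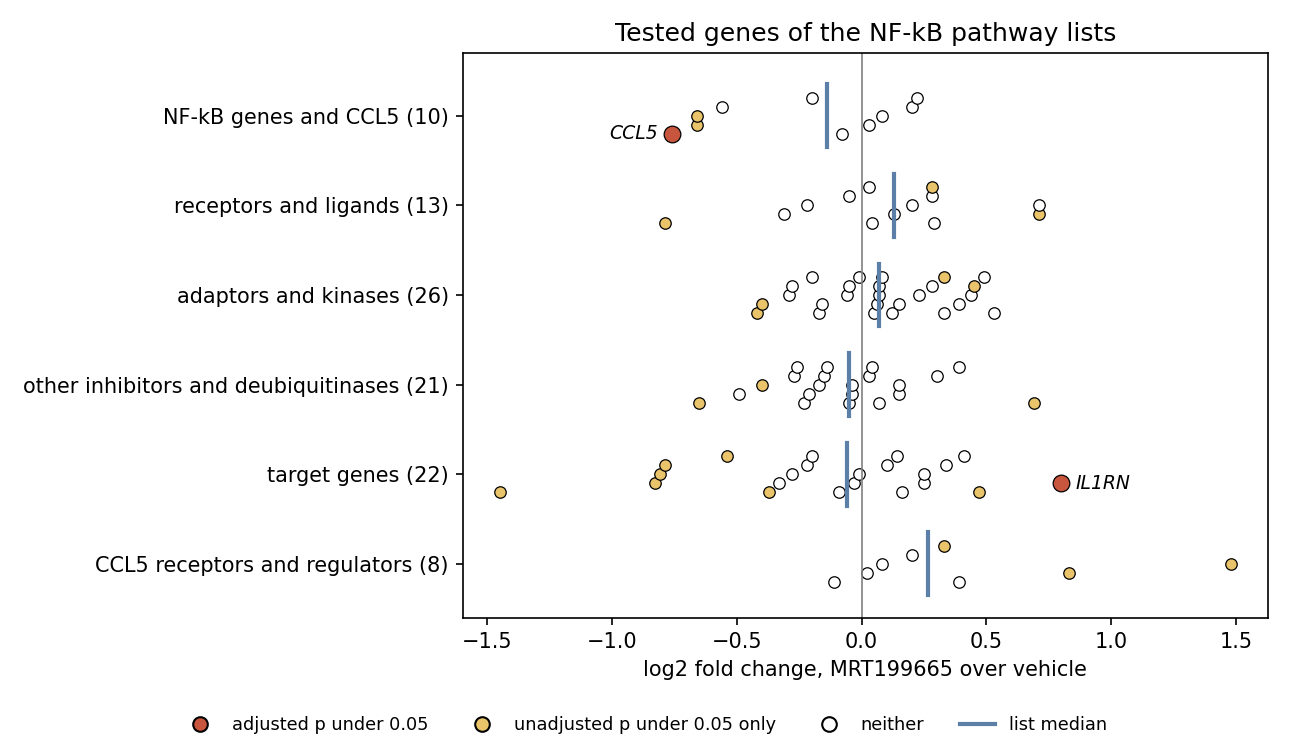
Log2 fold change (x axis, MRT199665 over vehicle) of every tested gene in the 10-gene group and 5 pathway lists (y axis, number tested in brackets), in red where the adjusted p was under 0.05, in yellow where only the unadjusted p was, with list medians as blue bars. CCL5 on the lower side and IL1RN on the higher side were the 2 genes called, and list medians lay between -0.14 and 0.27.

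Of 38 known NF-kB target genes 22 were tested, 1 was called higher and none lower by edgeR or limma-voom, while DESeq2 called 1 lower (IL8, adjusted p = 0.0306). IL1RN, the interleukin-1 receptor antagonist, rose 1.74-fold, from 83.5, 101 and 90.1 CPM with vehicle to 177, 142 and 158 CPM with MRT199665 (log2 fold change 0.80 ± 0.13, SE, adjusted p = 0.0246). Its call ended without vehicle replicate 1 (adjusted p = 0.0543) or 3 (0.187) and without MRT199665 replicate 1 (0.112) or 3 (0.150). A further 6 target genes (IL8, CCL3, JUNB, IRF1, PLAUR and SQSTM1) had an unadjusted p under 0.05 and lower means. CFLAR had such a p and a higher mean. Among all tested genes, 7.11% had such a p with a lower mean and 7.64% with a higher mean. These target genes were named after their values were seen. For PLAUR and JUNB, vehicle replicate 1 stood above the other vehicle libraries. PLAUR was at 48.5, 23.8 and 21.4 CPM with vehicle and 16.9, 18.1 and 19.1 CPM with MRT199665. Its log2 fold change of -0.79 lay between -1 and -0.32 in the alternatives. JUNB was at 90, 44 and 62.1 CPM with vehicle and 35.9, 34.8 and 40.8 CPM with MRT199665. The 2 with the lowest p among the 6, IL8 and CCL3, both encode chemokines. IL8 (CXCL8) was at 11.0, 8.92 and 11.7 CPM with vehicle and 6.57, 5.41 and 5.67 CPM with MRT199665 (log2 fold change -0.83 ± 0.18, SE, adjusted p = 0.0715). CCL3 had few counts, with 24, 35 and 28 in the vehicle libraries and 15, 4 and 13 in the MRT199665 libraries. It was at 2.01, 3.00 and 2.85 CPM with vehicle and 1.13, 0.676 and 0.921 CPM with MRT199665 (log2 fold change -1.45 ± 0.31, SE, adjusted p = 0.0732). Both were lower in all 3 treated libraries than in any vehicle library, and neither passed the edgeR test. The other chemokine genes of the list had too few counts to be tested: CXCL3 (2, 1 and 3 counts with vehicle, 6, 2 and 6 with MRT199665) and CCL2 (0 in each vehicle library, 3, 4 and 4 with MRT199665) had higher CPM in every treated library, CXCL1, CXCL2, CCL4, CCL20 and CCL22 overlapped between groups, and CXCL10 had no counts. The median log2 fold change of the target list was -0.06, with 13 of 22 genes negative, and 4 listed targets (CXCL10, IL6, VCAM1 and EBI3) had a count of 0 in all 6 libraries.

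The last list held receptors of CCL5 and factors known to act on its promoter, of which 8 of 9 were tested. None was called by edgeR or limma-voom, and the median log2 fold change was 0.27. At an unadjusted p under 0.05 there were 3, against 14.7% of all tested genes. DESeq2 called 1 gene of the list higher, IRF7, an interferon regulatory factor that can activate CCL5. IRF7 was at 5.70, 6.43 and 5.19 CPM with vehicle and 9.74, 12.7 and 8.93 CPM with MRT199665, above vehicle in every treated library (log2 fold change 0.83 ± 0.19, SE, adjusted p = 0.0895 by edgeR). CCR1, the main monocyte receptor for CCL5, was at 59.3, 62.1 and 66.2 CPM with vehicle and 84.2, 75.7 and 76.3 CPM with MRT199665 (log2 fold change 0.33 ± 0.11, SE, adjusted p = 0.197). IRF7 and CCR1 thus had higher means where CCL5 was lower, without passing the edgeR test.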

How the data were processed

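The authors deposited 1 table of whole-number counts per gene symbol, not normalized. The submitters' processing notes name the hg19 build and the tools HTSeq 0.6.1, STAR 2.4 and DESeq2; annotation, strand setting and filters: not given in the sources used here. In GENCODE release 29, exons of other genes overlap those of REL (same strand), RELA and TNFAIP3 (opposite strand). How reads there were counted is not given, so the counts of these 3 genes may be affected. Groups and replicate numbers came from the labels.

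The test was edgeR's quasi-likelihood test (version 4.0.16, R 4.3.3) with TMM scaling, group alone in the model and filterByExpr (minimum count 10, minimum total 15). P-values were two-sided and adjusted over 13053 genes. Each SE is the size of the log2 fold change over the root of its F. CPM used TMM-scaled totals, and log2 CPM a prior count of 2. DESeq2 1.42.0, limma 3.58.1 and other settings were alternatives. The test was also run on simulated counts, drawn independently for each library. These hold no shared cultures or batches, so they cannot show how the test behaves if the libraries were not independent. No libraries were copies (chi-square per degree of freedom of 8.59 or more within groups).

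The genes, lists, tests and alternatives were chosen with earlier results of these data known. Named by rule from each list were called genes or, with none called, the 2 with the lowest p. Other list genes (among them TNFRSF1A, TNFRSF1B, IKBKB, IKBKE, MAP3K14, IKBKG, CFLAR and the chemokine genes beside CCL5) were named after their values were seen. Some markers of other cell types are not reported here.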

Additional observations from a re-analysis of the deposited data

How the results depend on the processing

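All 17 alternatives kept the direction of CCL5, RELB, TNFAIP3, NFKB2, REL, RELA and BIRC3. The log2 fold change of CCL5 lost its call against a 1.5-fold threshold (-0.76), with the replicate block (-0.75, adjusted p = 0.277) and without both replicates 2 (-0.67, adjusted p = 0.0633), and with 1 library left out it lay between -0.86 and -0.67. RELB was called without a low-count filter (-0.68) and by DESeq2 (-0.66), and TNFAIP3 without that filter (-0.68). With 1 library left out, NFKB1 ranged from -0.05 to 0.13, NFKBIA from -0.13 to 0.40 and NFKBIE from -0.15 to 0.02, and without both replicates 2 they were at -0.10, -0.12 and 0.04. The cause of these reversals was not tested.

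Of the 10 genes, 3 were called lower without a low-count filter, 2 by DESeq2, 0 against 1.5-fold, with the replicate block or without both replicates 2, and 0 to 1 with a library left out. Over all genes, 111 were called higher and 52 lower as reported, 373 and 271 without a low-count filter, 217 and 146 by DESeq2, 29 and 16 against 1.5-fold, 7 and 5 with the replicate block, and 29 to 78 and 20 to 55 with a library left out. The target list had 1 gene called higher as reported, 0 against 1.5-fold or with the block, and 0 to 1 with a library left out; 4 were called lower without a low-count filter and 1 by DESeq2. Without that filter 1 gene was called higher in each of the receptor, inhibitor and CCL5 regulator lists and 1 lower in each of the receptor and inhibitor lists. DESeq2 called 1 inhibitor and 1 CCL5 regulator higher and 1 adaptor lower, 1 inhibitor was higher without both replicates 2, and 0 to 1 receptor or ligand was lower with a library left out.

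Deviations of same-numbered libraries from their group means correlated at -0.547, -0.467 and 0.0182 for replicates 1, 2 and 3. With 3 libraries per group these correlations depend on each other, so they cannot decide whether libraries were paired. The labels state no pairing, and the block result rests on shared numbers alone. Across numbers the highest correlations were 0.53 (vehicle replicate 2 with MRT199665 replicate 1) and 0.482 (vehicle replicate 1 with MRT199665 replicate 2). What these libraries share was not tested. Depth limits BIRC3 most, with 77 counts over all libraries.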
